A study of Canis lupus familiaris with 10 samples.

Results

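The genes examined were 40 interferon-stimulated antiviral genes, taken as a fixed list of gene symbols without a filter on how they behaved. They were read in the QuantSeq 3′ data of canine cutaneous histiocytoma (CCH), which arises from Langerhans cells in the skin and usually regresses on its own. Of the 40 symbols, 38 were among the 23266 of the count table, and *IFIT1* and *SAMD9* were not in it. A further gene, *IFI6*, fell under the filter on low values, so that 37 were tested among 12397 genes in all. The list, like the other gene lists below, was chosen with earlier results of these data known.

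The 10 samples were FFPE tumors of pet dogs, with 5 in the early group (group 1 of the histological staging) and 5 in the late group (group 3), whose labels name an enrichment in lymphocytes. The dogs were 0.5 to 5 years old in the early group, where 4 ages were given, and 1.5 to 9 years old in the late group. The labels give no treatment, and RNA came from entire cross sections after adjacent tissue had been removed, so that each library held tumor cells together with infiltrating and stromal cells. Every library was made from 375 ng of RNA with the protocol for low-quality RNA. The numbers 1 to 5 given to the libraries of a stage serve as names and carry no order.

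Interferons are secreted when a cell senses viral nucleic acid or, in the case of interferon-gamma, by activated T cells and natural killer cells. Type I interferons act through the receptor IFNAR and Janus kinases on transcription factors that switch on the antiviral genes. Interferon-gamma has a receptor of its own and shares part of these targets. Regression of CCH is known to come with an infiltrate of cytotoxic T cells.

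Between 2973125 and 4439709 reads per library were assigned to genes, and the limit that 3 reads set was 2.36 to 3.22 normalized reads. The sum of the 12 T-cell markers, all present in the table, ran from 98.1 to 2942 in early and from 4189 to 7425 in late libraries, so that the stages did not overlap. No T-cell marker was at 0 in a late library, and *CD5* was at 0 in early library 1. Of the Langerhans and dendritic cell list, 9 of 11 markers were in the table, with summed levels of 852 to 2505 in early and 887 to 1553 in late libraries. Within this list the members moved apart: *FLT3* (log2FC, -2.89 ± 0.50) and *FCER1A* (-2.47 ± 0.42) were called as lower in late CCH, though in 3 and 1 of the 10 fits with 1 library omitted, while *CD1A8* had -3.80 ± 0.92 and *CCR7* 2.38 ± 0.63 without a call. DV200, the percentage of RNA fragments over 200 nucleotides, averaged 68.5 ± 2.46 for early and 73.2 ± 2.09 for late samples according to the labels (SD, n = 5 each). It ran from 64.5 to 71.2 in the early and from 71.2 to 75.8 in the late samples. These values could not be linked to single libraries. The DV200 of a late sample differs between the label used here and the description of the samples elsewhere. The stages were also prepared in different extraction batches, and batch and stage cannot be told apart. RNA quality by these labels was higher in the late group and cannot be separated from stage here either.

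Early libraries 1 and 5 stood apart by low levels of these genes, and late library 3 by high ones. The level of the 37 genes in a library was summarized as the mean deviation, on the log2 scale, of each gene from its mean over all 10 libraries. It was -1.42, -0.06, 0.52, 0.70 and -0.90 in early libraries 1 to 5. In late libraries 1 to 5 it was 0.13, 0.19, 0.79, 0.11 and -0.06. The early libraries therefore reached both the lowest levels of the series and levels close to its highest, while the late libraries other than 3 lay close together.

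**Figure D1:**
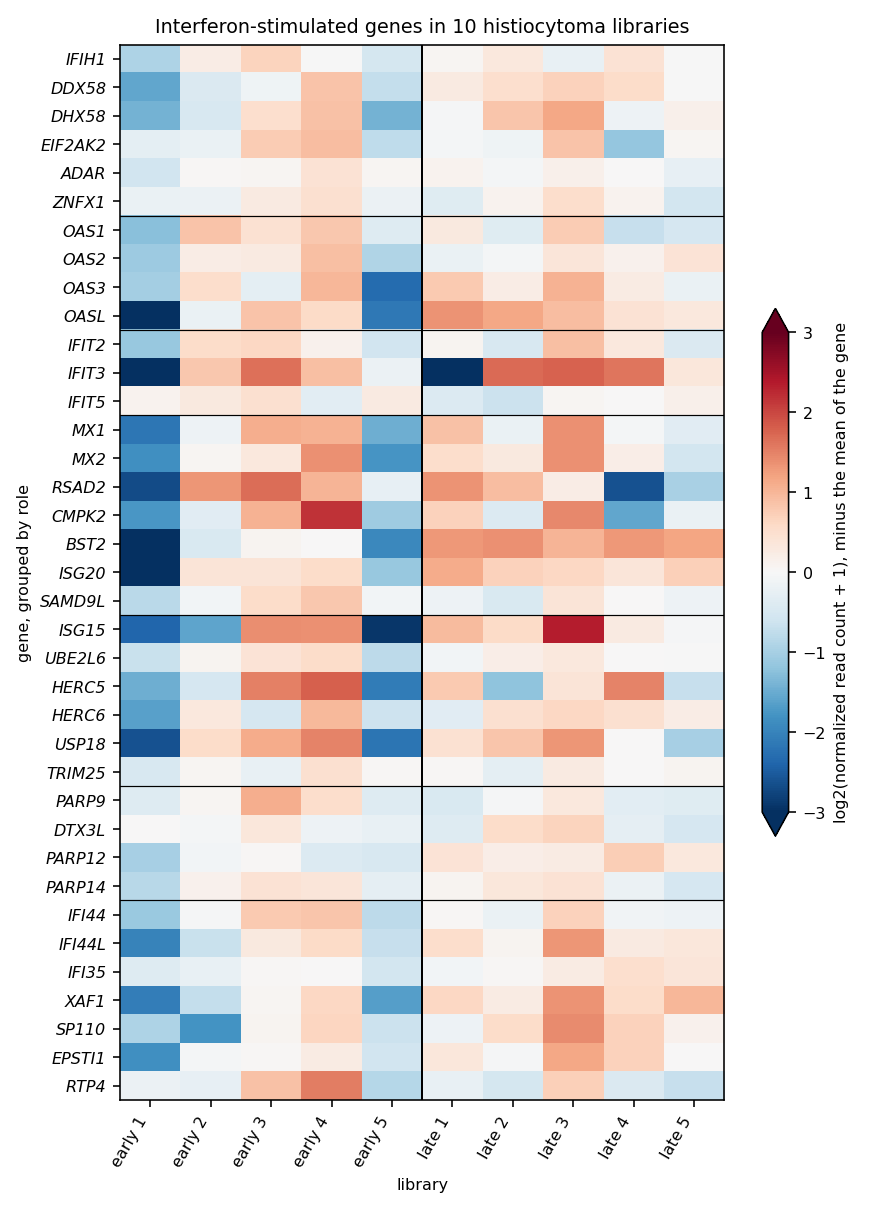
Log2(normalized read count + 1) of the 37 genes tested, minus the mean of the gene over 10 libraries, with the genes in rows grouped by role and the libraries in columns (color scale from -3 to 3, values beyond it drawn in the end color). Early library 1 held the lowest of the 10 values in 24 of the 37 genes, and early library 4 and late library 3 held the highest in 14 and 13 genes.

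Early library 1 had the lowest value of all 10 libraries in 24 of the 37 genes and early library 5 in 6. The highest of the 10 values was found in early library 4 for 14 genes, in late library 3 for 13 genes and in early library 3 for 4 genes. Early library 1 lay below early library 3 in all 37 genes, although both are of the same stage. Early library 4, in contrast, exceeded late library 1 in 30 genes, late library 2 in 29, late library 4 in 28 and late library 5 in 30, while it exceeded late library 3 in 18. Reads on the 38 genes in the table, *IFI6* included, made up 0.113%, 0.211%, 0.294%, 0.316% and 0.146% of the reads of early libraries 1 to 5. In late libraries 1 to 5 they made up 0.277%, 0.276%, 0.369%, 0.265% and 0.235%. The share averaged 0.216% ± 0.0889 for early and 0.284% ± 0.0502 for late libraries (SD, n = 5 each), and the stages overlapped.

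The order of the early libraries in these genes was close to their order in T-cell markers. The sum of T-cell markers was 98.1, 1015, 2942, 2172 and 341 in early libraries 1 to 5, so that libraries 1 and 5 were lowest in both measures and libraries 3 and 4 highest. Among the late libraries, late library 3 was highest in the interferon-stimulated genes and lowest in T-cell markers, with 4189 beside 6696, 4934, 7425 and 6567 in late libraries 1, 2, 4 and 5. Late library 3 also had the highest B-cell marker sum, 2552 against 459 to 920.3 in the other late libraries and 217 to 351 in the early ones. The Langerhans and dendritic cell sum was 1109, 852, 2505, 2212 and 1558 in early libraries 1 to 5. In late libraries 1 to 5 it was 1186, 1046, 1553, 907 and 887. This sum, too, was highest in early libraries 3 and 4 and in late library 3 within their stages. Early library 5, low in the interferon-stimulated genes, exceeded early libraries 1 and 2 in it. Keratinocyte markers, which point to epidermis in the section, summed to 14760 in early library 1 and 16444 in early library 4, the libraries with the lowest and the highest early level of the interferon-stimulated genes. The part of these cell types in the differences was not tested, and in bulk tissue fewer cells of a type and less RNA per cell cannot be told apart.

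**Figure D2:**
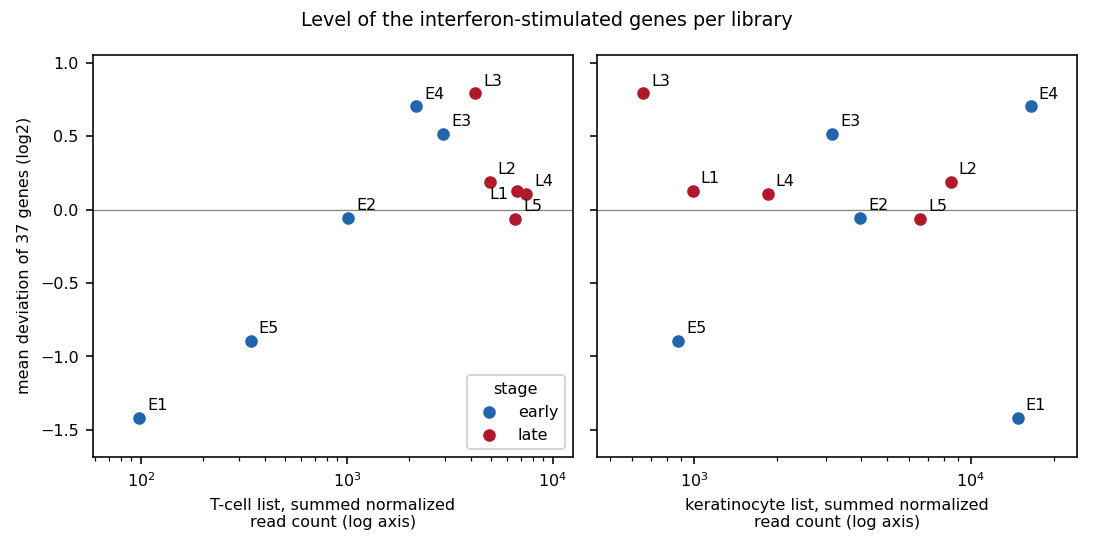
Mean log2 deviation of the 37 genes in each library (y axis) against the summed normalized read count of the T-cell markers (left) and of the keratinocyte markers (right), both on log axes, with E1 to E5 for early and L1 to L5 for late libraries 1 to 5. The early libraries run from -1.42 to 0.70 and the late ones from -0.06 to 0.79, and the early libraries with the fewest T-cell marker reads are the lowest.

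To ascertain whether the antiviral genes differed between early and late CCH, each gene was tested with limma on log2(value + 1) and called at a Benjamini-Yekutieli (BY) adjusted p of at most 0.05 with a log2FC of at most -1 or at least 1. Values of log2FC are late minus early throughout. None of the 37 genes was called in this comparison. Over all genes tested, 2.17% were called in either direction, 1.06% as higher and 1.11% as lower in late CCH. With so small a share, the 0 among 37 genes does not set them apart from the rest. The median log2FC of the 37 genes was 0.24 (range -0.46 to 2.47), beside a median of -0.0037 over all genes tested. It was positive in 26 of the 37 genes (70.3%; all genes, 49.8%).

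The median rested on few libraries. It was 0.03 without early library 1 and 0.06 without early library 5, and it was 0.50, 0.41 and 0.42 without early library 4, early library 3 and late library 1. At an unadjusted p of at most 0.05, 8 genes were higher in late CCH (21.6%, beside 15.6% of all genes) and 0 were lower (15.3% of all genes). These were *BST2*, *PARP12*, *XAF1*, *SP110*, *OASL*, *IFI44L*, *EPSTI1* and *IFI35*. With edgeR's quasi-likelihood test on the reads recovered from the deposited values, 0 of the 37 genes were called (1.43% of all genes), and with DESeq2 1 was called, *BST2* (6.53% of all genes). With Benjamini-Hochberg (BH) adjustment of the limma fit, *BST2* was again the 1 gene called (5.53% of all genes called as higher).

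The precision of the comparison differed from gene to gene. For 13 of the 37 genes (35.1%; all genes, 45%) the 95% interval of the log2FC lay within -1 to 1, so that a change of the size required for a call lay outside it. The interval reached 1 or more in 21 genes and -1 or less in 8. The median standard error was 0.41, beside 0.29 over all genes tested.

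**Figure D3:**
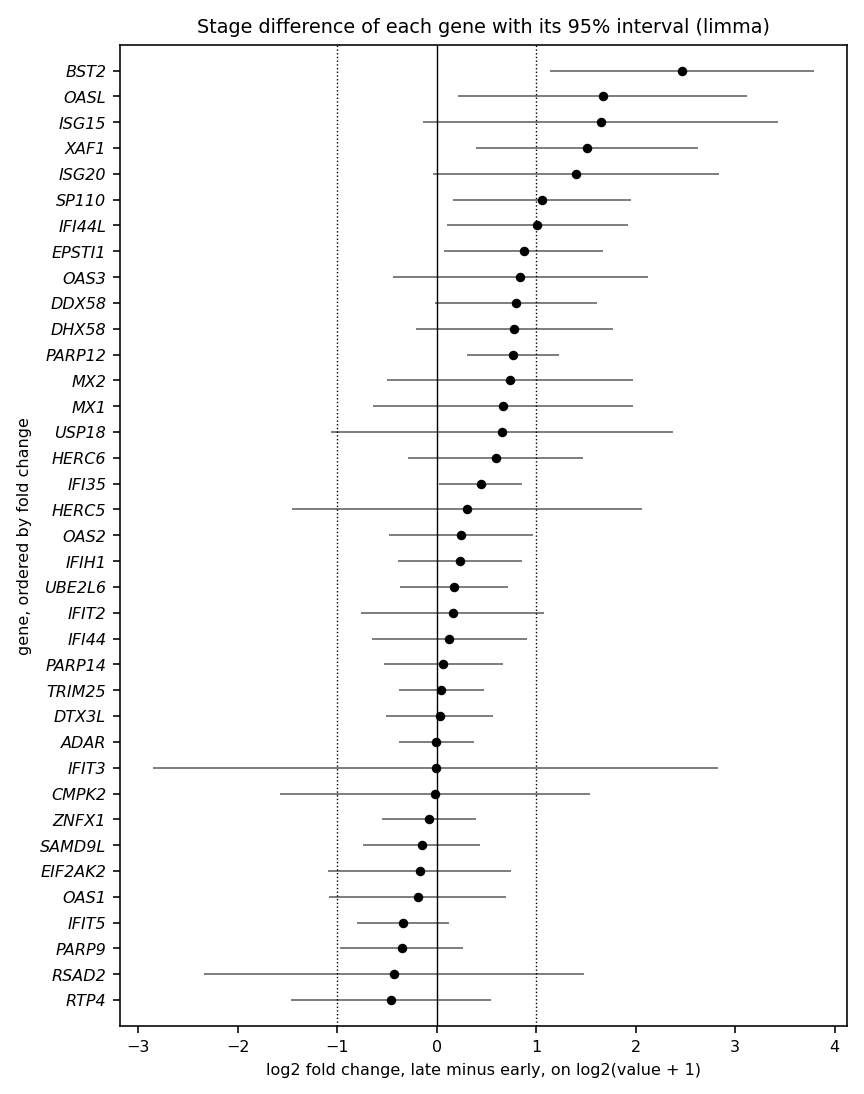
Log2FC of each of the 37 genes, late minus early, on log2(value + 1), with its 95% interval from limma (n = 5 libraries per stage). Dotted lines mark -1 and 1, and *BST2* at 2.47 is the gene whose whole interval lies above 1.

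The spread among the early tumors was wide. The median log2 SD of the 37 genes reached 0.90 among early and 0.46 among late libraries, beside 0.42 and 0.41 over all genes tested. From the lowest to the highest early library the genes spanned a median of 2.30 on the log2 scale, and from the lowest to the highest late library a median of 1.11. The early span was the wider in 33 of the 37 genes (89.2%; all genes, 51.7%). This was not particular to the antiviral genes. Among the interferon lists described below, the share was 85.7% for interferon-gamma induced genes and 85.7% for ligands and receptors. It was 63.6% for nucleic acid sensing and 61.5% for JAK, STAT, IRF and SOCS genes. T-cell markers had 100% and B-cell markers 42.9%. An early SD above the median of the antiviral genes was found in 15.6% of all genes tested, and a late SD above their late median in 44.1%. The widest early spans were those of *IFIT3* (4.82), *RSAD2* (4.36), *ISG15* (4.30), *ISG20* (4.22), *OASL* (4.12) and *USP18* (4.09), and the narrowest those of *DTX3L* (0.57), *IFI35* (0.59), *ZNFX1* (0.67) and *IFIT5* (0.80).

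Restriction factors act directly on the virus or on its replication. Of 8 listed, 7 were tested, with a median log2FC of 0.66. *BST2* encodes tetherin, a membrane protein that holds budding virions at the cell surface. Its normalized read count was 24.8, 271, 391, 373 and 95.5 in early libraries 1 to 5 and 912, 961, 753, 912 and 841 in late libraries 1 to 5. Every late library exceeded every early one, and the late libraries lay close together while the early ones spanned 3.93 on the log2 scale. It averaged 231 ± 165 in early and 876 ± 80.6 in late CCH (SD, n = 5 each), with a log2FC of 2.47 ± 0.61 (SE; 95% interval, 1.14 to 3.79). The BY-adjusted p was 0.186 with limma, 0.304 with edgeR and 0.0164 with DESeq2. It remained above the threshold in limma when any library was left out (0.103 to 0.481), and the log2FC then ran from 1.81 without early library 1 to 2.79 without early library 3. Over the other settings the adjusted p ran from 0.0164 to 0.416.

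*ISG20*, a nuclease that degrades single-stranded RNA, had 12.4, 221, 223, 249 and 76.2 normalized reads in the early and 369.9, 274, 261, 219 and 277 in the late libraries. Late library 4 alone fell below early libraries 2 to 4, and early libraries 1 and 5 were by far the lowest. The log2FC was 1.40 ± 0.66 with limma, 0.86 with edgeR and 0.66 in limma without early library 1. *RSAD2*, which encodes viperin, an enzyme whose nucleotide product terminates viral RNA synthesis, had 4.76, 92.1, 118, 74.0 and 30.1 normalized reads in the early libraries. In the late libraries it had 93.5, 69.5, 42.6, 5.11 and 17.8. Both stages held libraries near 5 and libraries above 90, and the log2FC of -0.43 ± 0.88 turned to 0.17 without late library 4. *SAMD9L*, an inhibitor of translation, was the second most abundant of the genes with 387, 638, 988, 1181 and 643 in the early and 609, 489, 881, 685 and 609 in the late libraries. All late values lay within the early range (log2FC, -0.15 ± 0.27). QuantSeq 3′ gives a single fragment per transcript, so that levels of genes could be set side by side without a correction for length. The other tested restriction factors were the dynamin-like GTPases *MX1* and *MX2*, with log2FC of 0.66 and 0.74 (0.34 and 0.40 with edgeR), and the mitochondrial nucleotide kinase *CMPK2*, with -0.02 (-0.34 with edgeR).

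**Figure D4:**
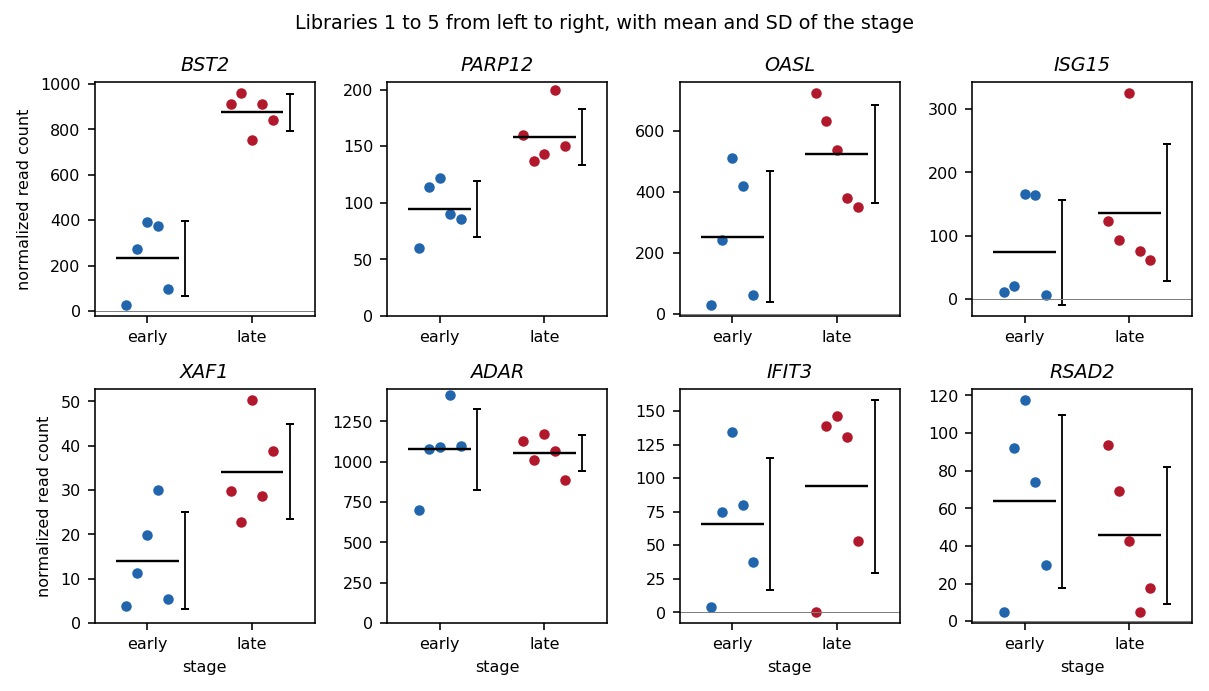
Normalized read counts of 8 genes in each of the 5 early and 5 late libraries (points, libraries 1 to 5 from left to right), with the mean (line) and SD (bar) of the stage. The stages do not overlap for *BST2* and *PARP12*, and they overlap for *OASL*, *ISG15*, *XAF1*, *ADAR*, *IFIT3* and *RSAD2*.

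The oligoadenylate synthetases respond to double-stranded RNA and make short oligoadenylates that activate RNase L. The median log2FC of the 4 members was 0.54. *OASL* is a family member whose human form lacks this enzymatic activity and acts on RNA sensing. It had 28.6, 244, 512, 421 and 63.3 normalized reads in the early libraries. In the late libraries it had 724, 634, 536, 378 and 349. Late libraries 1 to 3 lay above all early ones, whereas late libraries 4 and 5 lay below early libraries 3 and 4. The log2FC was 1.67 ± 0.67 with limma (BY-adjusted p = 1) and 1.07 with edgeR. The table holds a second row named OASL_1, with a log2FC of 1.03. Its name does not tell whether it is a second gene, and reads of *OASL* may have been divided between the rows. *OAS1*, *OAS2* and *OAS3* had log2FC of -0.19, 0.24 and 0.84 with limma and -0.26, 0.09 and 0.54 with edgeR. *OAS3* was the least abundant gene tested, with 2.15 to 29.9 normalized reads in the early and 12.6 to 31.0 in the late libraries.

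The sensors and RNA-directed enzymes recognize or modify double-stranded RNA. Their 6 members, all tested, had a median log2FC of 0.12, with 3 positive and 3 negative. *ADAR*, which edits adenosine to inosine, was the most abundant of the 37 genes and among the least variable. It had 702, 1076, 1094, 1413 and 1097 normalized reads in the early libraries. In the late libraries it had 1126, 1013, 1174, 1067 and 888. Means of 1076 ± 252 and 1053 ± 111 (SD, n = 5 each) differed by less than the SD of either stage, and the 95% interval of the log2FC ran from -0.38 to 0.38. Among the helicases that sense cytosolic RNA, *DDX58* (RIG-I) and *DHX58* (LGP2) had log2FC of 0.79 and 0.78, and *IFIH1* (MDA5) had 0.24. *EIF2AK2*, the kinase PKR that halts translation, had -0.17, and *ZNFX1* had -0.08.

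The IFIT proteins bind foreign RNA and block its translation. *IFIT5* was the steadiest of the 3 members tested, with 125, 143, 163, 92.9 and 141 normalized reads in the early and 86.5, 74.2, 120.1, 117 and 128 in the late libraries. The stages overlapped, and the log2FC was -0.34 ± 0.21. *IFIT3* had the largest standard error of the 37 genes and is described here because of its values. It had 3.81, 74.4, 135, 80.3 and 37.6 normalized reads in the early libraries. In late libraries 2 to 5 it had 139, 146, 131 and 53.5, while late library 1 had 0 reads, where 3 reads would equal 2.98. The log2FC was -0.01 ± 1.31 with all libraries, 0.52 with edgeR and 1.34 without late library 1. *IFIT2* had a log2FC of 0.16.

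ISG15 is a ubiquitin-like protein that is attached to other proteins by UBE2L6, HERC5 and HERC6 and removed by USP18, which also dampens the interferon receptor. All 6 genes of this system, including the ubiquitin ligase *TRIM25*, had a positive log2FC in the limma fit (0.05 to 1.65; all genes, 49.8% positive). None of the 6 reached an unadjusted p of 0.05 (all genes, 15.6% as higher and 15.3% as lower), and so short a list tells little. *HERC5* was negative with edgeR (-0.14) and DESeq2 (-0.15). With 1 library omitted, *HERC5* passed the filter on low values in 5 fits and changed sign in 2 of them. *UBE2L6* and *TRIM25* changed sign in 1 and 3 of 10 such fits. *ISG15* had 11.4, 20.5, 166, 164 and 7.51 normalized reads in the early libraries. In the late libraries it had 123, 94.2, 325, 76.7 and 61.9. The early libraries thus fell apart into 3 with at most 20.5 and 2 with at least 164, and 4 of the 5 late libraries lay in between. The log2FC was 1.65 ± 0.82 with limma (95% interval, -0.14 to 3.44), 0.90 with edgeR and 0.89 with DESeq2. *USP18* had a like spread, with 3.81 and 5.37 in early libraries 1 and 5, 41.9 to 81.1 in the other early libraries and 13.6 to 71.7 in the late ones. *UBE2L6*, *HERC6* and *HERC5* had log2FC of 0.17, 0.59 and 0.30.

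PARP9 and DTX3L form a complex that modifies histones and viral proteins, and PARP12 and PARP14 transfer single ADP-ribose units. *PARP12* had 59.98, 114, 122, 89.8 and 85.9 normalized reads in the early and 160.1, 137, 143, 199 and 150.0 in the late libraries. Besides *BST2* it was the other gene whose late libraries all exceeded the early ones. Together these were 2 of 37 genes (5.41%), while 5.91% of all genes tested showed this pattern. All late values lay below the early ones in 0 of the 37 genes, and in 6.05% of all genes. The log2FC of *PARP12*, chosen after its values were seen, was 0.77 ± 0.21 (95% interval, 0.31 to 1.23; limma, BY-adjusted p = 0.295), under the size required for a call. *PARP9* had 112, 153, 314, 213 and 112 normalized reads in the early and 106, 143, 184, 118 and 113 in the late libraries. Early libraries 3 and 4 lay above every late one and the stages overlapped otherwise, and the log2FC was -0.35 ± 0.29. *DTX3L*, which lies next to *PARP9*, had 0.03, and *PARP14* had 0.07.

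The remaining interferon-induced genes had the highest group median, 0.87 over the 7 of 8 that were tested. Of these 7, 5 were higher at an unadjusted p of at most 0.05 (15.6% of all genes), out of 8 such genes in the whole list. *XAF1*, whose product counteracts the apoptosis inhibitor XIAP, had 3.81, 11.2, 19.9, 29.9 and 5.37 normalized reads in the early and 29.8, 22.8, 50.4, 28.6 and 38.8 in the late libraries. Early library 4 reached the late range, the other early libraries lay below it, and the log2FC was 1.51 ± 0.51 (limma, BY-adjusted p = 0.653). *SP110*, a component of nuclear bodies, had 166, 90.2, 338, 494 and 204 normalized reads in the early libraries. In the late libraries it had 286, 464, 851, 514 and 346. Early libraries 3 and 4 lay within the late range, and the log2FC was 1.06 ± 0.41. *RTP4*, a chaperone of membrane receptors, had 24.8, 23.3, 52.5, 82.7 and 15.0 in the early and 23.9, 19.0, 46.5, 20.5 and 16.8 in the late libraries, with the lowest log2FC of all 37 genes (-0.46 ± 0.46). Its high values were those of early libraries 3 and 4 and of late library 3. *IFI44L*, *EPSTI1* and *IFI35* had log2FC of 1.01, 0.87 and 0.44, and *IFI44* had 0.12. *IFI6*, a mitochondrial inhibitor of apoptosis, was not tested, with 0, 3.72, 14.5, 24.4 and 0 in the early and 0, 8.56, 1.94, 7.16 and 6.30 in the late libraries.

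Several of these genes lie next to each other in the dog genome. By the gene order of the RefSeq annotation of the assembly UU_Cfam_GSD_1.0, in which 38 of the 40 listed symbols were found, there were 8 neighboring pairs. The log2FC of neighbors were closest for *MX2* and *MX1* (0.74 and 0.66), followed by *IFIT2* and *IFIT3* (0.16 and -0.01) and by *HERC5* and *HERC6* (0.30 and 0.59). The place of *IFIT3* in this order is uncertain. Its standard error was 1.31, and its log2FC was 1.34 without late library 1, which had 0 reads of it. They lay further apart for *PARP9* and *DTX3L* (-0.35 and 0.03), *CMPK2* and *RSAD2* (-0.02 and -0.43), *OAS3* and *OAS2* (0.84 and 0.24), *IFI44* and *IFI44L* (0.12 and 1.01) and *OAS1* and *OAS3* (-0.19 and 0.84). None of these differences between neighbors was tested. Some pairs are similar in sequence, so that the values of such relatives are less certain than those of single genes. According to the authors' methods, a read that mapped to several places was counted in equal parts for each. The deposited values were whole multiples of a read, so that such parts are not visible in them.

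Upstream of the antiviral genes, 9 of 12 listed interferon ligands and receptors were in the table, and *IFNB1*, *IFNL1* and *IFNL3* were not. Of the 7 tested, 1 was called as higher (1.06% of all genes), *IFNAR2*, a chain of the type I interferon receptor. It averaged 30.0 ± 10.2 in early and 105 ± 14.4 in late CCH (log2FC, 1.83 ± 0.26; limma, BY-adjusted p = 0.0194). Of 10 fits with 1 library omitted, 6 called it as well, and the call was lost without early library 5 or late libraries 1, 2 or 4 (adjusted p up to 0.0707). *IFNG*, the interferon of T cells, had a log2FC of 2.19 ± 0.89 and *IFNGR1*, a chain of its receptor, -1.07 ± 0.47, and both had an adjusted p of 1. Of the 7 genes, 4 were higher and 1 lower at an unadjusted p of at most 0.05 (15.6% and 15.3% of all genes). In 3 of the 7 all late values exceeded the early ones (5.91% of all genes), and the median log2FC was 0.70. Of 13 tested genes of JAKs, STATs, IRFs and SOCS proteins, 0 were called (2.17% of all genes), and the median log2FC was 0.36. At an unadjusted p of at most 0.05, 6 were higher (15.6% of all genes) and 0 lower (15.3% of all genes). The highest log2FC of this list were those of *SOCS1*, a feedback inhibitor of cytokine signaling (2.23 ± 0.70), and *IRF8* (1.27 ± 0.33), and the lowest those of *IRF5* (-0.40 ± 0.31) and *IRF9* (-0.23 ± 0.23). Among 11 tested genes of nucleic acid sensing upstream of interferon 0 were called (2.17% of all genes). In this list 2 were higher and 4 lower at an unadjusted p of at most 0.05 (15.6% and 15.3% of all genes), and the median log2FC was -0.36. The highest log2FC in it were those of *TLR8* (2.11 ± 0.42; limma, BY-adjusted p = 0.0746) and *IKBKE* (1.15 ± 0.27), and the lowest those of *MB21D1* (-0.93 ± 0.26) and *TMEM173* (-0.67 ± 0.19).

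The genes induced mainly by interferon-gamma stood beside the antiviral genes with a higher median. Of 20 listed symbols, 15 were in the table and 14 were tested, and *WARS* was listed under its newer name *WARS1* as well. Of the 14 tested, 13 had a positive log2FC (all genes, 49.8%), and the median was 1.14, beside 0.24 for the antiviral genes. In 7 of the 14 all late values exceeded the early ones (5.91% of all genes), and 10 were higher at an unadjusted p of at most 0.05 (15.6% of all genes). As higher, 1 gene was called (1.06% of all genes), *CD274*, which encodes the checkpoint ligand PD-L1. It averaged 66.4 ± 46.4 in early and 272 ± 66.8 in late CCH (limma, BY-adjusted p = 0.0419). The call remained in 2 of the 10 fits without 1 library, those without early library 2 or 3 (adjusted p up to 0.122 in the others). *IDO1*, which degrades tryptophan, had the highest log2FC with 4.21 ± 0.78 (adjusted p = 0.0526), and *PSMB9*, an immunoproteasome subunit, the lowest with -0.26 ± 0.23. The difference between the lists was not tested, and the T-cell marker sums given above moved with the stages as well. Both lists were chosen with earlier results of these data known.

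**Figure D5:**
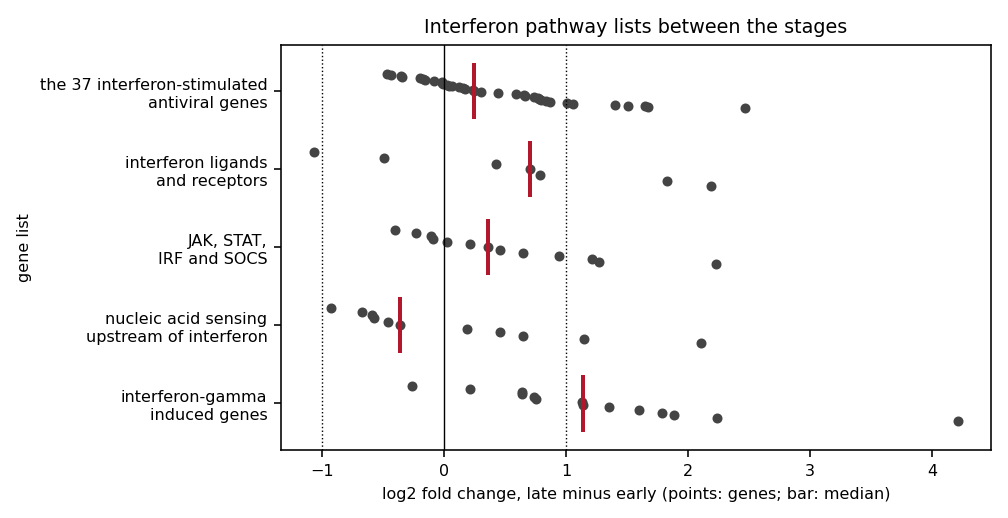
Log2FC (late minus early) of every tested gene (points) in the antiviral list and in 4 other interferon lists, with the median of each list as a red bar and dotted lines at -1 and 1. The medians are 0.24 for the antiviral genes, 0.70 for ligands and receptors, 0.36 for JAK, STAT, IRF and SOCS genes, -0.36 for nucleic acid sensing and 1.14 for interferon-gamma induced genes.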

How the data were processed

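FFPE tumors of 5 early and 5 late CCH were profiled with QuantSeq 3′ (FWD kit). According to the authors' methods, reads were trimmed with Cutadapt, aligned with STAR to CanFam3.1 and counted per gene with featureCounts, with a second round on genes extended downstream for unassigned reads. Tool versions and the strand setting are not given in the sources used here. The deposited values are a normalized signal, the read counts of a library divided by its size factor. All 166096 values above 0 in the 10 columns used were whole multiples of a single read (100%, tolerance 0.001 reads), from which reads were recovered for edgeR and DESeq2. Of 21 value columns, 11 could be matched to no sample here and were left aside. Column names show the stage but not the sample, so that age and RNA quality could not enter a fit.

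Genes that reached a value of 10 or more in 5 or more libraries entered limma 3.58.1 (R 4.3.3; mean-variance trend, log2(value + 1), pseudocount 1, 2-sided) over all 12397 genes without covariates, with BY adjustment. edgeR 4.0.16 and DESeq2 1.42.0 were alternatives, with other scalings, pseudocounts, filters, adjustments and leaving out each library. Scripts were tested on simulated data. The log2 scale with a pseudocount understates changes of low genes. The labels do not state that every tumor came from another dog, and p-values measure the spread between these libraries. Values in every library are given for genes called, the 6 with the highest and the 4 with the lowest log2FC and the 2 most abundant, and others are named with fewer values or because of them. Of the interferon lists, genes called and the extremes of log2FC may be named, and of the marker lists single genes only where they moved apart from the list's sum. The members and lists were chosen with earlier results of these data known. Sequences of the genes were not used here.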

Additional observations from a re-analysis of the deposited data

Results flagged for a closer look

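Late library 3 stood apart from the other 4 late libraries in 4 genes, where its gap to the next library exceeded the critical share of the range for 5 values (0.71). *ISG15* had 325 normalized reads there and 123 in the next late library (0.767 of the range). *IFI44* had 657 against 419 (0.791), *IFI44L* 459 against 264 (0.741) and *RTP4* 46.5 against 23.9 (0.762). No early library was marked in this way, and in *IFI44* and *RTP4* early libraries 3 and 4 were above late library 3. Of 80 groups of 5 values examined 4 were past the critical value, and chance marks about 1 in 20.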

How the results depend on the processing

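No member was called in either direction with other scalings, pseudocounts, filters, robust moderation, library weights, edgeR, no fold threshold or any 1 library left out (0 to 0). The number called as higher became 1 with DESeq2, 1 with BH adjustment and 8 with the unadjusted p, which was added after the data were seen, and the number called as lower was 0 throughout. The median log2FC of the genes was 0.13 with edgeR, 0.11 with DESeq2, 0.44 with library weights and 0.33 with column totals, where the median of all genes was 0.09, and ran from 0.03 to 0.50 with 1 library left out. *ADAR* changed sign with column totals (0.0868) and library weights (0.0479) and ran from -0.15 to 0.10 with 1 library left out. *SAMD9L* ran from -0.37 to 0.0297 and *RSAD2* from -1.16 to 0.17. In all, 23 genes kept their sign in every fit without 1 library and 14 did not. With column totals 64% of all calls were higher in late CCH, against 48.7% as reported, and leaving out 1 library gave 49 to 260 calls over all genes. No paired analysis was possible because no column carries a replicate number and the labels pair no early with a late tumor. Depth limits the low genes: 3 reads equal 2.36 to 3.22 normalized reads, and *IFI6* lay at or under this limit in 4 libraries.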
